A study of Homo sapiens with 14 samples.

Results

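The genes described here encode the proteins of the cytosolic ribosome, and the regions are the peaks at their promoters. Members were the protein-coding genes whose symbols begin with RPL or RPS followed by a digit, together with RPLP0, RPLP1, RPLP2 and RPSA, leaving out the ribosomal S6 kinases and the RPS19-binding protein. The rule selected 90 of 20033 protein-coding genes, of which 52 were assigned to the large subunit, 3 to its stalk and 35 to the small subunit. A peak was assigned to a member promoter when its midpoint fell between 2 kb before and 1 kb after an annotated transcription start site (TSS). By this definition, 85 of 20429 peaks of the untreated list and 87 of 35287 peaks of the dTAG-V1 list were member promoter peaks.

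The peaks came from chromatin immunoprecipitation sequencing with the Proteintech antibody, a polyclonal antibody raised against the zinc finger factor ZNF143, which the study describes as also recognizing CTCF. HEK293T is an established human embryonic kidney line, and all samples came from 1 clone (CloneZD29) in which ZNF143 carries the FKBP12F36V tag, so the control cells carry the tag too. The untreated group had 4 samples and received no compound. The dTAG-V1 group had 4 samples and was exposed for 30 min to 0.5 µM dTAG-V1, a small molecule that directs the tagged protein to degradation. Each group was represented by 1 peak list without replicate values, so no difference between the lists could be set against replicate spread and no test was made. The depth behind the lists is unknown. The 6 CTCF samples of the series were not analysed here.

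Ribosomal protein genes are transcribed at high and coordinated rates in dividing cells. Their messenger RNAs typically begin with a C followed by a run of pyrimidines, the terminal oligopyrimidine (TOP) tract, through which their translation responds to growth signals. ZNF143 binds promoters through a long motif, the SBS, which occurs in forms termed SBS1 and SBS2. CTCF binds a different motif and is best known for its role at chromatin loop anchors.

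Motifs were searched with matrices learned from the peaks themselves, on both strands, at a hit p-value of 1e-05. The letters found in at least 50% of the learned sites read ATTTCCCAGNATCCCTTGCNG for SBS1, GNACTACATTTCCCAGNATNC for SBS2 and CCACNAGGGGGCAC for CTCF. The following sites are among the best SBS hits within 100 bp of the summits of the highest-scoring member peaks, shown because these peaks lead the list. Capitals mark the hit, and 4 flanking bases on each side are in lower case. Sequences are of hg38, and the strand given is the one printed.
RPS26 (SBS1, chr12:56041883-56041911, minus strand): atgtGTCTCCCAGCAAGCCTTGCGCcgcg
RPL36 (SBS2, chr19:5680747-5680775, minus strand): ggccGAACTACATTTCCCAGGAGGCtccg
RPL32 (SBS1, chr3:12841551-12841579, minus strand): ggttACGACCCATCAGCCCTTGCGCgcca
RPS13 (SBS2, chr11:17077782-17077810, plus strand): tgtgTGACTACATCTCCCGAAATGCattt
RPL15 (SBS2, chr3:23917038-23917066, plus strand): gccgGAACTACATGTCCCATGACGCtctg
RPL23A (SBS2, chr17:28719788-28719816, plus strand): caaaAAACTACAACCCCCATGAAGCttta
RPLP2 (SBS2, chr11:809557-809585, minus strand): cagcGAACTGCAAGTCCCATGGTGCaccg
RPL6 (SBS2, chr12:112409673-112409701, minus strand): ggaaATACTACATTCCCCATGATGCccca
RPS3 (SBS2, chr11:75399417-75399445, plus strand): gtaaAAACTACATTTCCCATGAGCAccca

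The SBS2 site of RPL36 had the lowest hit p-value of those shown, 5.55e-11, and the SBS1 site of RPL32 the highest, 6.05e-06. That RPL36 site lay at -9534 bp from the canonical RPL36 start, in a peak whose nearest TSS was that of HSD11B1L. The centres of the hits shown lay between 13 and 61 bp from their summits. A match to a matrix is a description of the letters and does not show which protein was bound.

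Nearly all cytosolic ribosomal protein genes had a promoter peak in both lists. In the untreated list 82 of the 90 members had one (91.1%, 95% Wilson interval 83.4 to 95.4), against 40.4% of all protein-coding genes. In the dTAG-V1 list 81 members had one (90%, 82.1 to 94.6), against 48.1% of all protein-coding genes. Both lists held overlapping promoter peaks for 80 members, or 88.9%, against 35.8% of all protein-coding genes. Intervals cover counting error only.

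**Figure D1:**
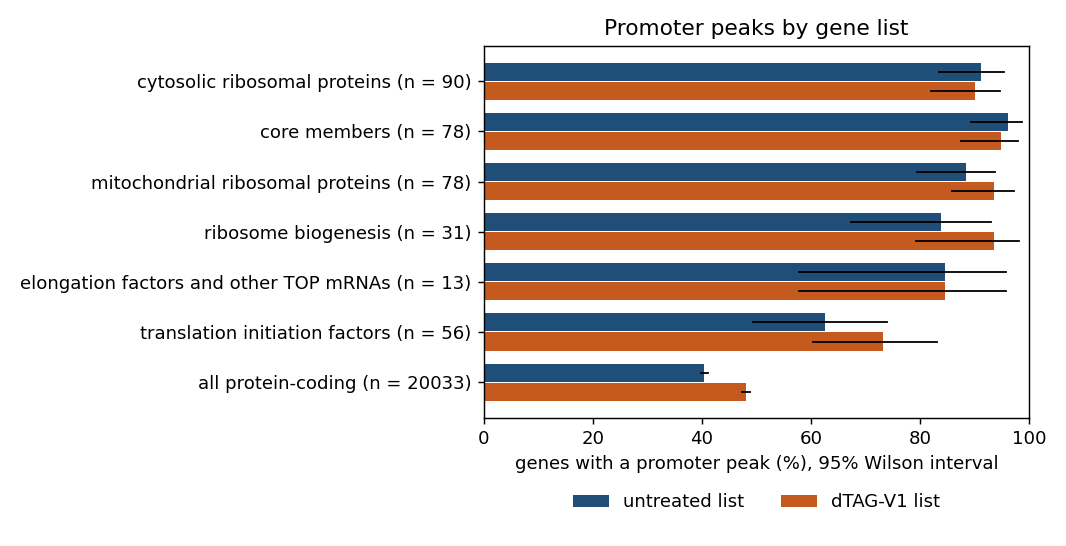
The horizontal axis gives the percentage of genes with a promoter peak and the vertical axis the gene list, with bars for the untreated list (blue) and the dTAG-V1 list (orange) and black lines for 95% Wilson intervals. Cytosolic ribosomal protein genes stand at 91.1% and 90%, and all protein-coding genes at 40.4% and 48.1%.

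Of the large subunit genes 46 of 52 had overlapping promoter peaks in both lists, of the stalk genes 3 of 3, and of the small subunit genes 31 of 35. The large subunit genes of this class included RPL3, RPL4, RPL5, RPL6, RPL7, RPL7A, RPL8, RPL9, RPL10, RPL10A, RPL11, RPL12, RPL13, RPL13A, RPL14, RPL15, RPL17, RPL18, RPL19, RPL21, RPL22, RPL23, RPL23A, RPL26, RPL27, RPL27A, RPL28, RPL29, RPL30, RPL31, RPL32, RPL34, RPL35, RPL35A, RPL36, RPL36A, RPL37, RPL38, RPL39 and RPL41, the paralogs RPL3L, RPL7L1 and RPL26L1, and the read-through genes RPL17-C18orf32 and RPL36A-HNRNPH2. The small subunit genes included RPSA, RPS2, RPS3, RPS3A, RPS4X, RPS6, RPS7, RPS9, RPS10, RPS12, RPS13, RPS14, RPS15, RPS15A, RPS16, RPS18, RPS19, RPS20, RPS23, RPS24, RPS25, RPS26, RPS27, RPS27A, RPS28 and RPS29, the paralog RPS27L and the read-through gene RPS10-NUDT3. The stalk genes RPLP0, RPLP1 and RPLP2 encode the acidic proteins that recruit translation factors.

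RPL36AL and RPS21 had a promoter peak in the untreated list only, a class that held 3.18% of all protein-coding genes. RPL37A had one in the dTAG-V1 list only, a class that held 11.0% of all protein-coding genes. No promoter peak was listed for 7 members. They included RPL24, a core member, and the paralogs RPL10L, RPL22L1, RPL39L, RPS4Y1 and RPS4Y2. RPS4Y1 and RPS4Y2 lie on the Y chromosome, and whether these cells carry it was not examined. Expression was not measured here. Without the 9 paralogs and the 3 read-through genes, 75 of 78 members had an untreated promoter peak and 74 had one after dTAG-V1.

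Other genes of the translation machinery were counted in the same way. Among 78 mitochondrial ribosomal protein genes, 69 had an untreated promoter peak (88.5%, 79.5 to 93.8) and 73 had one after dTAG-V1. The interval overlapped that of the cytosolic genes. Among 31 ribosome biogenesis genes the counts were 26 and 29, and among 13 elongation factors and other TOP messenger RNAs 11 and 11. Translation initiation factors had fewer, with 35 of 56 untreated (62.5%, 49.4 to 74.0) and 41 after dTAG-V1.

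Member promoter peaks ranked high in the score of their own list. The median rank percentile of the untreated member peaks was 16.7 (95% interval 7.70 to 23.2), where 0 is the highest score, against 37.7 for the 7701 promoter peaks of all protein-coding genes. It was 20.9 (15.9 to 30.2) for mitochondrial ribosomal protein genes and 24.4 (10.0 to 33.4) for translation initiation factors, and both intervals overlapped that of the members. In the untreated list 35 of 85 member peaks were in the highest score decile, or 41.2%, against 20.6% of all protein-coding promoter peaks. In the dTAG-V1 list 47 of 87 were, or 54.0%, against 20.8%. The untreated and dTAG-V1 shares were 29.2% and 37.3% for mitochondrial ribosomal protein genes, and 31.6% and 37.0% for translation initiation factors. Their 95% intervals overlapped those of the members in both lists. The member peaks were also wide, with a median of 645 bp in the untreated list against 490 bp for all protein-coding promoter peaks and 598.5 bp for those of mitochondrial ribosomal protein genes.

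RPS26, a small subunit protein at the messenger RNA exit channel, had the highest-scoring member peak, at rank 42 of the untreated list (chr12:56041615-56042275, fold enrichment 31.7) and rank 61 of the dTAG-V1 list (27.8). Fold enrichment is the ratio over local background that the peak caller gives at the summit. The peak assigned to RPL36 (chr19:5680319-5681031) ranked 92 and 99, with fold enrichments of 25.8 and 25.0. It lay far from the canonical RPL36 start, at a summit distance of -9595 bp, near an alternative start, and the nearest TSS was that of HSD11B1L. RPL32, of the large subunit, ranked 179 and 739 (chr3:12841297-12841963), with fold enrichments of 32.9 and 22.5.

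RPS13 ranked 315 and 215 (chr11:17077623-17078193, fold enrichments 34.7 and 31.6). RPL15 ranked 319 and 223 (chr3:23916812-23917522). RPL23A, which lies near the exit of the nascent peptide tunnel, ranked 353 and 78 (chr17:28719484-28720209). All these summits were upstream of the canonical start, and their distances from the nearest member TSS ran from -327 bp for RPL36 to -3 bp for RPS26.

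The stalk gene RPLP2 ranked 408 and 593 (chr11:809315-810038), and the centre of its untreated peak was nearest to the TSS of PIDD1. RPS27A, which encodes a fusion of ubiquitin and a small subunit protein, ranked 428 and 330 (chr2:55232047-55232801, fold enrichments 28.0 and 26.4). RPL7 ranked 439 and 761, with fold enrichments of 31.3 and 21.2. All the genes named here were within the highest decile of scores in both lists.

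**Figure D2:**
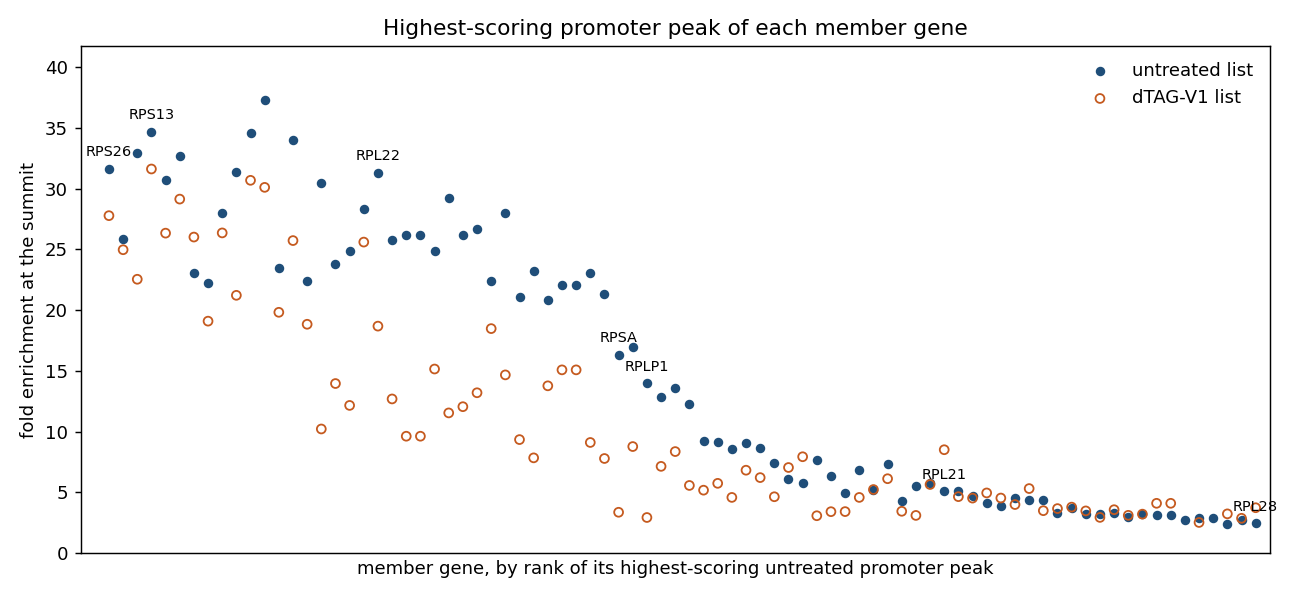
Each position along the horizontal axis is a member gene with a promoter peak in the untreated list, ordered by the rank of its highest-scoring peak, and the vertical axis gives the fold enrichment at the summit of that peak (filled blue, untreated list) and of the gene's highest-scoring dTAG-V1 peak (open orange). The values are on the scale of each list, with only some genes labelled, and genes on the left, such as RPS26 at 31.7 and 27.8, are high in both.

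The summits of member peaks lay close to and mostly upstream of the start sites. The median distance of the untreated summits from the nearest member TSS was -60 bp, negative values being upstream, and 71 of 85 lay within 250 bp. By canonical annotation 69 summits were upstream of the gene, 12 in an intron and 4 in an exon. For 12 of the 85 peaks the TSS nearest to the centre belonged to a gene that is not a member, and 21 of the 85, these 12 among them, held a TSS of such a gene. These peaks cannot be assigned to the ribosomal protein gene alone. An example is the peak assigned to RPL3L, the muscle paralog of RPL3, whose nearest TSS was that of NDUFB10.

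**Figure D3:**
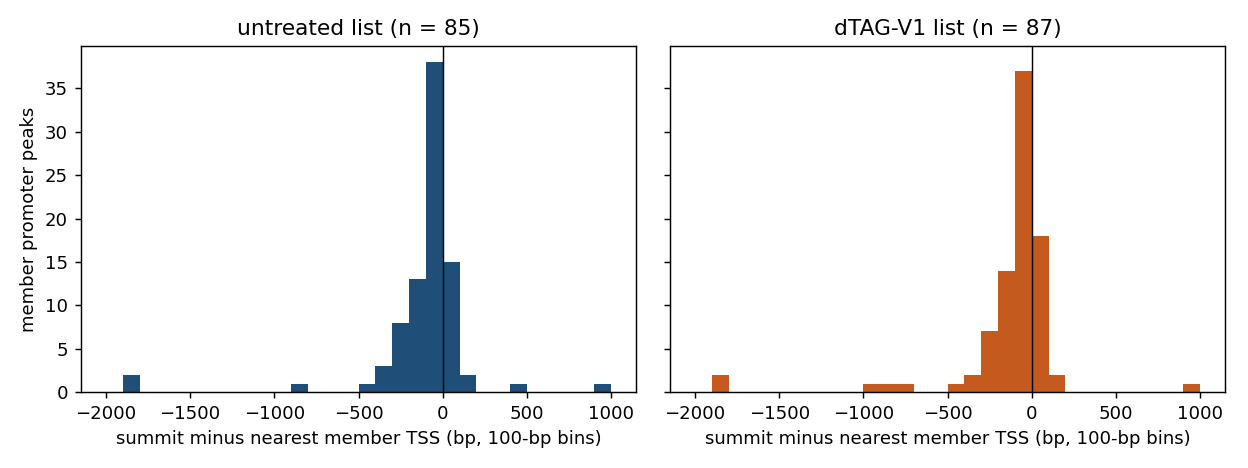
The horizontal axes give the distance of each summit from the nearest member TSS in bp, in 100-bp bins with negative values upstream, and the vertical axis the number of member promoter peaks in the untreated list (85 peaks) and the dTAG-V1 list (87 peaks). Most summits fall within 250 bp of the start, with 71 of 85 in the untreated list.

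Of the 85 untreated member peaks, 81 had an overlapping peak after dTAG-V1 (95.3%, 88.5 to 98.2), against 84.2% of all protein-coding promoter peaks and 73.2% of all untreated peaks. The counts were 71 of 72 for mitochondrial ribosomal protein genes and 35 of 38 for translation initiation factors. The 4 without a partner were a peak in intron 4 of RPL3 (rank 5669, fold enrichment 4.27), a peak at an alternative start of RPL6 (rank 7693, 4.48), the RPL36AL peak (rank 13742, 2.71) and the RPS21 peak (rank 15767, 2.90). RPL3 and RPL6 each had another promoter peak that was found in both lists. None of the 4 was in the highest decile of scores.

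In the dTAG-V1 list 5 of 87 member peaks overlapped no untreated peak (5.75%, 2.48 to 12.8), against 37.4% of all protein-coding promoter peaks and 57.8% of all peaks of that list. Among mitochondrial ribosomal protein promoter peaks 12 of 83 had no partner, and among those of translation initiation factors 18 of 54. The methods state a stricter replicate rule for untreated than for dTAG-V1 peaks, and its part in the counts of peaks found in 1 list only was not tested. The 5 member peaks were assigned to RPL27A (rank 12057, fold enrichment 3.57), RPL6 (rank 20627, 2.97), RPL37A (rank 22538, 3.02), RPS27L (rank 28060, 2.64) and RPL9 (rank 33684, 2.26). The first, the second and the last were nearest to the TSS of TRIM66, PTPN11 and LIAS. Their rank percentiles ran from 34.2 for RPL27A to 95.5 for RPL9.

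Since the dTAG-V1 list is longer, ranks of shared peaks were also taken among the 14948 untreated peaks with a partner only. On this scale 37 of the 81 member peaks were placed higher and 44 lower in the dTAG-V1 list, and the median absolute shift was 3.42 percentile points. Among all shared protein-coding promoter peaks 41.9% were placed higher, and the median absolute shift was 8.80 points. The median signed shifts were 0.15 and 1.15 points. The sets were not matched in score. The fold enrichment at the summit was lower in the dTAG-V1 list for 60 of the 81 member peaks, or 74.1%, against 67.2% of all shared protein-coding promoter peaks. It was lower for 31 of the 33 member peaks with an SBS hit and for 29 of the 48 without. The peaks with a hit also had the higher untreated fold enrichments, with medians of 23.8 and 5.15. This split was not made for all shared protein-coding promoter peaks. Fold enrichments were not normalized between the lists, so these values do not measure a loss of signal.

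A few members moved far. RPS27L, a paralog of RPS27, went from the 26.3 to the 81.8 percentile among shared peaks, with fold enrichments of 7.70 and 3.07. The stalk gene RPLP1 went from 14.9 to 59.2 (14.0 and 2.93), RPS16 from 31.6 to 73.1 (5.50 and 3.10), RPSA from 13.6 to 54.5 (16.3 and 3.36) and RPL13A from 26.4 to 59.6 (6.37 and 3.41). In the other direction RPL28 went from 95.1 to 64.0, with fold enrichments of 2.46 and 3.73, and RPS24 from 85.5 to 58.0, with 2.38 and 3.23. The untreated RPS16 peak held the TSS of SUPT5H, which was nearest to its centre, so it cannot be assigned to RPS16 alone. These genes were named after their values were seen, and with 1 list per group the shifts have no replicate check.

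**Figure D4:**
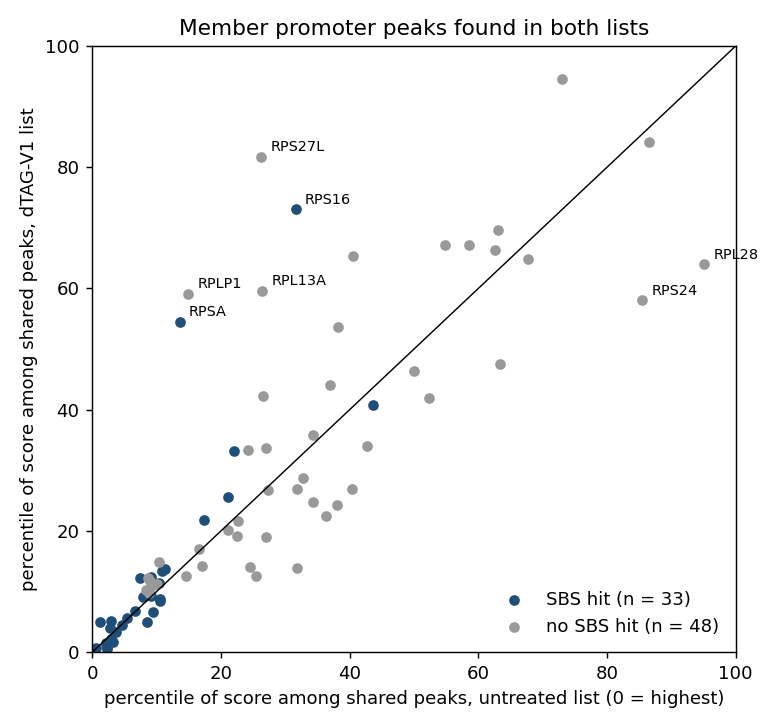
Each point is 1 of the 81 member promoter peaks found in both lists, with its score percentile among shared peaks in the untreated list on the horizontal axis and in the dTAG-V1 list on the vertical axis (0 is the highest score), blue with an SBS hit and grey without, and the line marks equal percentiles. Of the points 44 lie above the line, and RPS27L, RPS16, RPLP1, RPL13A and RPSA lie well above it.

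An SBS hit was present in 33 of the 85 untreated member peaks (38.8%, 29.2 to 49.4) and in 28.1% of all protein-coding promoter peaks. This share rests on how the matrices were made. Matrices of 3 versions were tried, and the one used here was adopted after the member shares of the first had been seen. With the first version, learned on whole peaks with the base frequencies of the genome, 49 of 85 member peaks had a hit (57.6%, 47.0 to 67.6), against 55.7% of all protein-coding promoter peaks. With the second version the shares were 32.9% and 28.2%, and with the matrices used here but genome base frequencies they were 42.4% and 42.1%. In the untreated list the members' interval therefore left out the share of all protein-coding promoter peaks only with the matrices used here, and the untreated share of the members is not reported as higher. In the dTAG-V1 list it left it out with each of these settings. There the SBS shares of members and of all protein-coding promoter peaks were 36.8% (27.4 to 47.3) and 19.4% with the matrices used here, and 56.3% (45.9 to 66.3) and 42.0% with the first version. With the second version they were 31.0% (22.3 to 41.4) and 20.6%, and with genome base frequencies 40.2% (30.6 to 50.7) and 29.1%. The all-gene share was lower in this list than in the untreated list under each of these 4 settings. Of the dTAG-V1 promoter peaks of all protein-coding genes 37.4% had no untreated partner, against 5.75% of member peaks, so the sets differ in makeup. Whole peaks were searched, and the dTAG-V1 member peaks were wider, with medians of 711 bp and 505 bp. Within 100 bp of the summit the dTAG-V1 shares were 33.3% (24.3 to 43.8) for members and 15.9% for all protein-coding promoter peaks. The untreated shares within that distance were 35.3% (26.0 to 45.9) and 25.3%. With the matrices used here on whole peaks, the dTAG-V1 share was 22.9% (15.2 to 33.0) for mitochondrial ribosomal protein promoter peaks. For those of translation initiation factors it was 22.2% (13.2 to 34.9). Both intervals overlapped that of the members. The first version was replaced because it also hit 34.1% of the promoters of protein-coding genes with no peak, against 3.45% with the matrices used here.

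**Figure D5:**
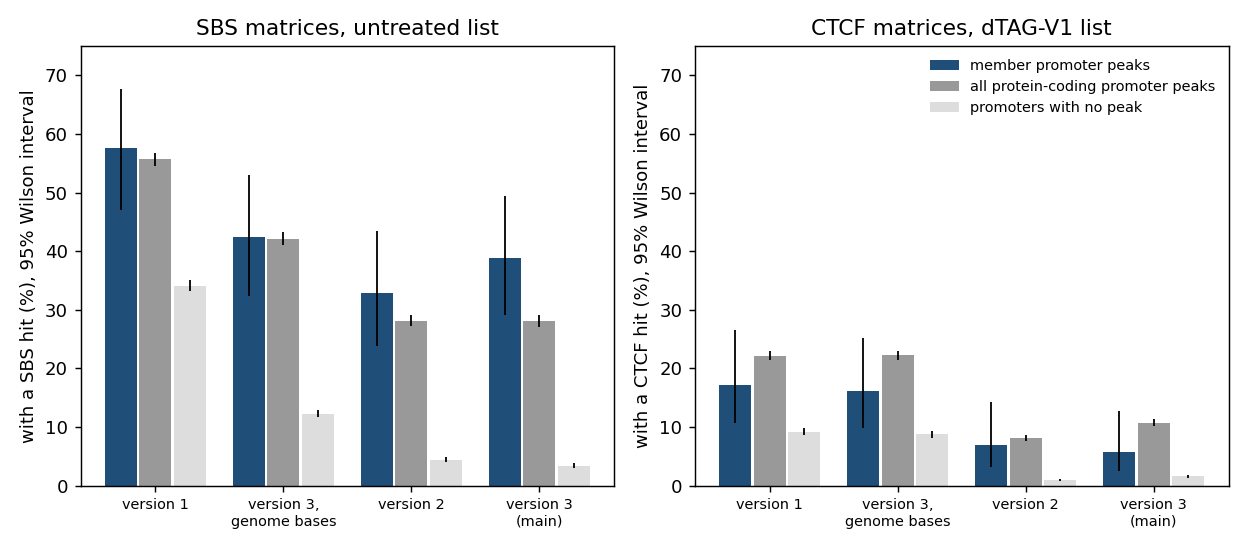
The horizontal axes give the matrix versions and the vertical axes the percentage of regions with an SBS hit (left, untreated list) or a CTCF hit (right, dTAG-V1 list), for member promoter peaks (blue), all protein-coding promoter peaks (grey) and promoters of genes with no peak (light grey), with 95% Wilson intervals. In the untreated list the SBS share of member peaks runs from 32.9% to 57.6% across versions and its interval holds the share of all protein-coding promoter peaks in all but the main version.

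Among members the SBS hits were gathered in the peaks with the highest scores. In the untreated list 27 of the 35 member peaks in the highest decile had a hit, against 6 of the other 50. The median fold enrichment was 23.8 for the 33 member peaks with a hit and 5.00 for the 52 without. The same split was not made for all protein-coding promoter peaks, so whether it is particular to the members cannot be told. The matrices were learned from peaks of these lists on odd-numbered autosomes, so the shares were also taken apart by chromosome. On the odd autosomes 20 of 49 member peaks had a hit (40.8%) and on the other chromosomes 13 of 36 (36.1%, 22.5 to 52.4). The best hit of a peak was centred a median of 19 bp from its summit. It was on the strand of the gene in 17 peaks and on the opposite strand in 16.

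Of the 8 member peaks of the highest decile without an SBS hit, those named here were RPS15A at rank 1245, RPL36 at its canonical start at rank 1304, RPL22 at rank 1319, RPL7L1 at rank 1321, RPL36A at rank 1348, RPL35A at rank 1408 and RPL11 at rank 1512 of the untreated list. RPL11 takes part with RPL5 in the response to impaired ribosome assembly. No match says only that these letters were not found at this threshold.

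A CTCF hit was present in 5 of the 87 dTAG-V1 member peaks (5.75%, 2.48 to 12.8), against 10.7% of all protein-coding promoter peaks and 22.6% of all peaks of that list. With the first matrix version 15 of 87 had one (17.2%, 10.7 to 26.5), against 22.2% of all protein-coding promoter peaks. In both versions the members' interval held the share of all protein-coding promoter peaks. This was not so within 100 bp of the summit with the matrices used here. There 2 of 87 member peaks had a hit (2.30%, 0.63 to 8.00), against 9.22% of all protein-coding promoter peaks. With whole peaks searched by the matrices used here, the hits were in peaks of RPS29, RPLP0, RPL5, RPL38 and RPS4X. Their ranks were 982, 3378, 3657, 4114 and 8820. In the untreated list 5 of 85 member peaks had a CTCF hit (5.88%, 2.54 to 13.0), against 6.25% of all protein-coding promoter peaks. The lowest p-value there, 2.01e-07, was in the RPL3 intron 4 peak, which had no dTAG-V1 partner. Shown here are the sites with the lowest p-values among dTAG-V1 member peaks, with 7 flanking bases.
RPLP0 (chr12:120201330-120201357, minus strand): ctccagcCCAGCAGGTGGCAGcagctca
RPL38 (chr17:74203545-74203572, plus strand): acttcgaCCACAAGGGGGCAGggctgct

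The start sites of the members differed from those of other genes. A TOP-type start, a C at the canonical TSS followed by 4 pyrimidines, was annotated for 60 of 90 members (66.7%, 56.4 to 75.5) and for 4.59% of all protein-coding genes. It was found for 32 of 52 large subunit genes, 3 of 3 stalk genes and 25 of 35 small subunit genes. With the RefSeq start it was found for 45 of 72 members, and within 10 bases of the canonical TSS for 81 of 90, against 33.6% of all protein-coding genes. Mitochondrial ribosomal protein genes had it at the canonical TSS in 5 of 78 cases, and translation initiation factors in 16 of 56 (28.6%), and 28 of the 56 had it within 10 bases. The first bases of 6 members with high-scoring peaks are shown, 10 upstream and 10 from the start. The pyrimidine run from the start is in capitals. The runs of RPLP2 and RPS3, of 13 and 11 bp, extend past the bases printed.
RPL36 (chr19:5690285-5690304, plus strand): cggcgccagcCCTTCCgcca
RPS13 (chr11:17077658-17077677, minus strand): ctctcgctctCCTTTCgttg
RPLP2 (chr11:809957-809976, plus strand): tcggcgccttCCTTTTCCTC
RPS27A (chr2:55232678-55232697, plus strand): ggcgttcttcCTTTTCgatc
RPL6 (chr12:112409596-112409615, minus strand): gaccttaattCTCTTTCCCa
RPS3 (chr11:75399508-75399527, plus strand): cgagccacttCCTTTCCTTT
The TOP-type start was also counted by SBS. It was present in 13 of 21 members whose promoter held an SBS hit (61.9%) and in 47 of 69 whose promoter held none (68.1%).

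Exact letters of other promoter motifs were counted on both strands from 250 bp upstream to 50 bp downstream of the canonical TSS. The letters AAGATGGC, a YY1 motif, were in 11 of 90 member promoters (12.2%, 6.96 to 20.6), in 4.04% of all protein-coding promoters, in 7.71% of those with a peak in both lists and in 28.2% of mitochondrial ribosomal protein promoters. The letters ACTTCCGG, an ETS motif, were in 13 (14.4%, 8.64 to 23.2), against 6.14% of all and 12% of promoters with a peak in both lists. TATAAA was in 9 (10%, 5.35 to 17.9), against 9.71% of all and 5.29% of promoters with a peak in both lists. GGGCGG, the GC box, was in 53 (58.9%, 48.6 to 68.5), against 61.3% of all and 69.5% of promoters with a peak in both lists. The SBS part ACTACA was in 14 (15.6%), against 8.30% of all and 13.9% of promoters with a peak in both lists. It was in 16.7% of mitochondrial ribosomal protein promoters. The part TTCCCAG was in 11 (12.2%), against 10.9% of all and 13.4% of promoters with a peak in both lists. Each of these letter strings can also lie within a longer motif, and the 2 SBS parts lie within the SBS matrices.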

How the data were processed

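ChIP-seq with the Proteintech antibody was analysed for 4 untreated and 4 dTAG-V1 samples from 2 lists of MACS2 narrow peaks, 1 per group, in hg38. The names of the untreated peaks refer to DMSO, and the labels, which give no treatment, were followed. According to the methods, the authors mapped reads with bwa, removed duplicates with Picard and kept peaks outside the blacklist. The methods describe an unequal rule for replicates, under which an untreated peak had to be found in all 4 samples and a dTAG-V1 peak in any 1 of 4. Whether the deposited lists are before or after it could not be told from the values. The deposited score is the integer MACS2 score of a peak. The deposited fold enrichment is a ratio over local background at the summit. The deposited −log10 q-value comes from the same call, and the deposited summit is an offset in bp. None is normalized between lists. The number of per-replicate columns is 0.

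Annotation was GENCODE release 44, read with Python 3.11.15, pandas 2.3.3, numpy 2.4.6, scipy 1.17.1 and pysam 0.24.0. Peaks overlapped when they shared 1 bp. The members, lists and rules were chosen with earlier results of these data known. The rule was to name every member by its class, with values for the 10 highest-scoring untreated peaks, up to 5 dTAG-V1 and up to 8 untreated peaks with no partner, and sites of up to 12 peaks with an SBS hit near the summit. Some members, sites and a list of ribosomal proteins outside the symbol rule are not reported here by name, and all members stay in the counts.

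The plan called for matrices learned from merged peaks on odd-numbered autosomes (21755 regions) as in earlier work on the series. That version, on whole peaks with genome base frequencies, was made first and its member shares were seen. It hit 34.1% of promoters with no peak and was replaced. A second version, within 100 bp of the centre and with promoter base frequencies throughout, gave CTCF letters that had drifted (CCACCAGATGGCAN). The third was learned within 100 bp with genome frequencies and scanned with promoter frequencies (62.2% C or G). It is used here, which departs from the plan. The choice rested on hits in promoters with no peak and on the letters, but was not blind to the members. Learning began at sites with up to 1 mismatch to a consensus and was iterated 10 times at p 1e-06 with a pseudocount of 0.8. Scanning, windows and overlaps were tested on simulated data. Shares have 95% Wilson intervals.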

Additional observations from a re-analysis of the deposited data

How the results depend on the processing

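Of 72 values recomputed under alternatives, 66 stayed within the interval of the reported value, or within 1.5 times of it for gene counts, and 6 moved. The gene counts were close to the 90 members, so a rise of 1.5 times was impossible. For them, staying within that limit says little. The alternatives were canonical starts only, a 500 bp window, the summit in place of the centre, a −log10 q-value of at least 10, no paralogs or read-through genes, peaks nearest to a member TSS, a 50% overlap, another motif threshold or search, and a TOP-type start within 10 bases. The SBS share of untreated member peaks went from 38.8% to 24.7% with fixed letters and to 57.6% with the first matrix version. The CTCF share of dTAG-V1 member peaks went from 5.75% to 17.2% with the first matrix version, to 16.1% with genome base frequencies and to 2.30% within 100 bp of the summit. The TOP-type share went from 66.7% to 90% within 10 bases of the TSS. The matrix versions, the genome base frequencies, the summit distance and the RefSeq start were added after the data were seen, and the cause of these shifts was not tested. No paired analysis was possible because each group is 1 list with no replicate values, and no replicate could be left out. Depth is unknown, so whether a peak missing from a list was absent or only not detected cannot be told.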
